A study of Mus musculus with 3 samples.

Results

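Open chromatin of undivided CBir1 CD4+ T cells was compared with that of polyclonal CD4+ T cells sorted from the same nodes, using 1 ATAC-seq peak list for each fraction. ATAC-seq cuts and tags accessible DNA with a transposase, so that a peak marks a stretch of open chromatin. Peaks of the undivided and polyclonal lists that shared at least 1 bp on chromosomes 1 to 19 were merged, which gave 48640 regions from 40781 undivided and 43327 polyclonal peaks. Merging in the study's list for divided CBir1 cells as well gave 55946 regions in all.

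CBir1 transgenic mice carry a T cell receptor that recognises a flagellin of gut bacteria. Naive CD4+ CBir1 cells from their spleens were labelled with CellTrace Violet, a dye that each division dilutes, and transferred into 4 wild-type C57BL/6J recipients. From the next day they were given 2% dextran sulfate sodium (DSS), an agent that disrupts the gut barrier, to drink for 7 days, then plain water. FTY720 (1 mg/kg), a drug that stops lymphocytes from leaving lymph nodes, was given on days 7, 10 and 13, and the colon-draining mesenteric nodes were taken on day 14. The undivided fraction was CBir1 cells that had kept the dye, and the polyclonal fraction was all CD4+ cells of the recipient that were not CBir1. Cells of 2 mice were pooled for each library, and pools were made in duplicate, but 1 list per fraction was analysed here. Both fractions were therefore exposed to DSS and FTY720, no library came from untreated recipients, and no difference below has a replicate check or a p-value. The labels state neither age nor sex. The 2 fractions differ in receptor, in donor (transferred spleen cells against cells of the host) and in division history at once, and these cannot be told apart.

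A naive T cell has met no antigen, recirculates between blood and lymph nodes, and is kept quiescent by factors such as TCF-1, LEF1 and FOXO1. The CD4+ pool of a gut-draining node also holds antigen-experienced cells: helper subsets that make interferon gamma, IL-17 or IL-21, and regulatory T cells that express CTLA-4 and can make IL-10. Open enhancers and promoters of lineage genes mark such cells, and in a mixed population the signal at a region depends both on how many cells have it open and on how open it is, which a bulk library cannot tell apart.

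Depth was close. The rescaling factor between the libraries, the median ratio of summit pileups (the number of fragments stacked at a peak's highest point) over shared regions, was 0.993, undivided over polyclonal. The lowest local background of each list, which scales with depth, gave 0.933. Median pileups were 30 fragments (undivided) and 27 (polyclonal), and the lowest pileup called was 5 in both. The T cell identity of both fractions was checked with 14 CD4+ T cell markers, including Cd3e, Cd4, Lck and Bcl11b: a peak near a gene end was present for 14 of 14 markers in undivided and 13 of 14 in polyclonal cells. Of 10 B cell markers, 1 and 2 had such a peak. Ms4a1 and Cd79b had none in either list. Of 13 myeloid and dendritic markers, 6 had a gene-end peak in undivided and 7 in polyclonal cells. The counts were 3 and 3 of 4 CD8 T cell markers, and 1 and 1 of 7 NK and innate lymphoid markers. Such peaks were thus not limited to CD4+ T cell markers.

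Promoter sequence was read from the RefSeq promoter table (GRCm38.p6, which is mm10). The following 6 promoters were chosen after their values were seen, to show the sequence behind some of the differences. Each is the 250 bases before a start given in that table, 5′ to 3′ on the gene's strand. Capitals mark up to 15 bases either side of the summit in the library where the region was higher. The Palld start is an internal one, inside the gene span (chr8:61511431-61902707). Rprm lies at chr2:54085553-54085802 (minus strand), Ly6c1 at chr15:75048664-75048913 (minus), Gpr15 at chr16:58718873-58719122 (minus), Ms4a4b at chr19:11443308-11443557 (plus), Palld at chr8:61591140-61591389 (minus) and Ptpn13 at chr5:103424942-103425191 (plus).
Rprm promoter: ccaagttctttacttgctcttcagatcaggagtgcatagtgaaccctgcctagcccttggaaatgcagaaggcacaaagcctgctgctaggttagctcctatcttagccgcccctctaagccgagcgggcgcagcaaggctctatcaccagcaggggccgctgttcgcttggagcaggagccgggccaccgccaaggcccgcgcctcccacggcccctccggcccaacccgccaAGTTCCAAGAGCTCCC
Ly6c1 promoter: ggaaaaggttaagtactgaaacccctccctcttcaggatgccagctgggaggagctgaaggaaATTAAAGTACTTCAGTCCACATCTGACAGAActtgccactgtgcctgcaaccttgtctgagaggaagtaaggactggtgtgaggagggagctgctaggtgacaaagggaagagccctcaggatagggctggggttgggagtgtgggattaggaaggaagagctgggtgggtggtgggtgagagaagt
Gpr15 promoter: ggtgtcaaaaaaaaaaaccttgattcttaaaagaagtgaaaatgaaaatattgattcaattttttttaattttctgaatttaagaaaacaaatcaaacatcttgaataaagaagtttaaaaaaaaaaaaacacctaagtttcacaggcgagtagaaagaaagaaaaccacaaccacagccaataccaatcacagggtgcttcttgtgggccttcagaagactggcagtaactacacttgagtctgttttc
Ms4a4b promoter: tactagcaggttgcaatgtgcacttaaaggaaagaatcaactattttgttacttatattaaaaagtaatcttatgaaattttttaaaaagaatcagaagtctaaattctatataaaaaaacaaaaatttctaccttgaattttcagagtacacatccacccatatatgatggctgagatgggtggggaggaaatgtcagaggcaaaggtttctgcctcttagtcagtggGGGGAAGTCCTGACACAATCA
Palld promoter: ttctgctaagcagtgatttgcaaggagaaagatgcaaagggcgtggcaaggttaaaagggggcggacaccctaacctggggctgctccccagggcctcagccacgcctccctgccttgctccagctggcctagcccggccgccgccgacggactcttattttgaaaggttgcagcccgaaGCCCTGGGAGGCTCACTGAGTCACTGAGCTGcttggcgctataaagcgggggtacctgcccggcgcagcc
Ptpn13 promoter: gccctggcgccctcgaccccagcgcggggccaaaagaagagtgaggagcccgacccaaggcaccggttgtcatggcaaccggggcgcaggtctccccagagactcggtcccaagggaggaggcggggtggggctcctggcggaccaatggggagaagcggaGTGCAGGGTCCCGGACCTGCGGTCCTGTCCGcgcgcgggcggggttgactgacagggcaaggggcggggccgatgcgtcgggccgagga

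The first 2 were open in undivided and not called in polyclonal cells. Ly6c1, which encodes a surface marker of T cell and monocyte subsets, had 31 fragments in undivided and 24 in divided cells. Ms4a4b, a T cell membrane protein gene, was the reverse, with 26 in polyclonal, 23 in divided and no call in undivided cells. The Palld window, at 10, 44 and 21 fragments in undivided, polyclonal and divided cells, holds the AP-1 letters TGACTCA under its summit, on the opposite strand. At Gpr15 the summit lay 71 bases into the gene, so that sequence carries no capitals. The Ly6c1, Gpr15 and Ms4a4b windows had 0, 1 and 0 CpG dinucleotides, against 13, 13 and 24 at Rprm, Palld and Ptpn13. Ly6c1 and Ms4a4b belong to gene families, so their reads may be split among copies.

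Of the 48640 regions, 34286 (70.5%, Wilson 95% interval 70.1 to 70.9) were open in both libraries. The polyclonal library held 8453 regions of its own (17.4%) and the undivided library 5901 (12.1%), so that 41.1% (40.3 to 41.9) of one-sided regions belonged to the undivided cells. Such intervals cover counting error only. An absent call is not an absence of signal: a one-sided region had a median pileup of 10 fragments on either side, against 41 for shared regions in the higher library. Where peaks had to reach a −log10 q of 5, q being the authors' adjusted p-value for a peak, 2583 undivided-only regions (5.31% of all regions) and 3865 polyclonal-only regions (7.95%) were left. The fold over local background and the q are the authors' own values for each peak.

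Signal in shared regions was similar between the libraries. The log2 ratio of pileups, undivided over polyclonal and rescaled to a median ratio of 1, lay between −0.71 and 0.66 for the central 90% of shared regions. Across regions the log2 pileups had a Pearson correlation of 0.948. Regions are not replicates, so this is a description. Among the 26909 shared regions with at least 20 fragments in the higher library, 304 (1.13%) were at least 2-fold higher in undivided and 424 (1.58%) at least 2-fold higher in polyclonal cells, so that 41.8% of those 2-fold apart were higher in undivided cells. With pileups scaled by the lowest background instead, these counts became 408 and 343, and that share 54.3%, so the side that holds more 2-fold regions depends on the scaling. With the authors' fold over local background in place of the pileup, 67 and 108 regions were 2-fold apart. A pileup ratio is therefore not a ratio of enrichment over background, and both are given below for some of the regions where they differ. A region that leans to a library is here one called in that library alone with −log10 q reaching 5, or a shared region at least 2-fold higher in it. By this rule 2887 regions leaned to undivided (5.94%) and 4289 to polyclonal cells (8.82%).

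**Figure D1:**
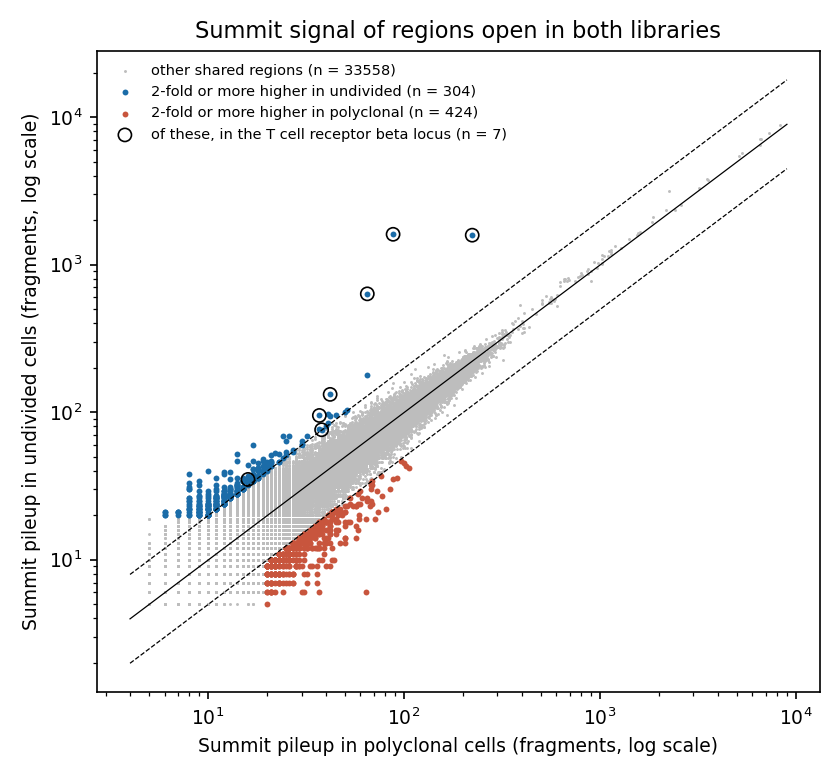
Summit pileup of each region open in both libraries, polyclonal on the horizontal and undivided on the vertical axis, both on log scales. The solid line is the rescaled equal ratio and the dashed lines are 2-fold either way. The 304 blue and 424 orange regions lie past 2-fold, and the 3 farthest above the line, all circled, are in the T cell receptor beta locus.

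One-sided regions were narrow and mostly away from gene ends. Median width was 239 bp for undivided-only, 248 bp for polyclonal-only and 685 bp for shared regions. A gene end, meaning within 1 kb of either end of a gene span, was overlapped by 31.3% of shared regions but by 10.2% of undivided-only and 9.80% of polyclonal-only regions. Width and place went together. Among regions 400 to 700 bp wide the shares were 14.5%, 12.7% and 10.1% for shared, undivided-only and polyclonal-only regions. At 700 bp or more, where few one-sided regions lay (42 and 104), they were 51.4%, 21.4% and 23.1%. Shared regions past 2-fold differed from each other in place: 17.0% (13.7 to 20.8) of those higher in polyclonal cells were at a gene end, against 7.57% (5.09 to 11.1) of those higher in undivided cells.

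The largest pileup ratio of any shared region with at least 20 fragments was in the T cell receptor loci, which carry the V, D, J and C segments joined to build the receptor. In the beta locus (chr6:40891296-41558371, mm10) 16 of 39 regions leaned to undivided and 6 to polyclonal cells. At Trbv12-2 (chr6:41118060-41119023) the pileup was 1606 fragments in undivided, 88 in polyclonal and 1524 in divided cells. This region was 18.4-fold higher in undivided than in polyclonal cells (95% counting interval 14.8 to 23.0), while the authors' fold over local background was 13.6 and 8.04 in the same order. At the neighbouring Trbv13-1 (chr6:41115951-41116754) it was 664 in undivided and 572 in divided cells, with no call in polyclonal cells.

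The 3′ end of the beta locus showed the same order. At the joining segment Trbj2-7 (chr6:41543812-41545821) the pileups were 634 in undivided, 65 in polyclonal and 683 in divided cells, a 9.82-fold difference (7.60 to 12.9). A region at chr6:41553117-41555204, beyond the constant segments, had 1584, 223 and 1301 fragments in that order, 7.15-fold (6.21 to 8.27). The authors' fold at these 2 regions was 7.39 and 9.88 in undivided against 5.69 and 7.81 in polyclonal cells, so the local background rose with the pileup. Both CBir1 libraries were thus high and the polyclonal library low or without a call at these 4 regions. In the other direction, Trbv13-2 and Trbd2 were called in polyclonal cells alone, at 28 and 57 fragments, and in neither CBir1 library. Of the 13 polyclonal-only regions of the locus 3 were called in divided cells, against 6 of the 9 undivided-only regions. CBir1 cells carry their receptor as a transgene, and reads from a transgene and from the chromosomal segments cannot be told apart in these lists.

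**Figure D2:**
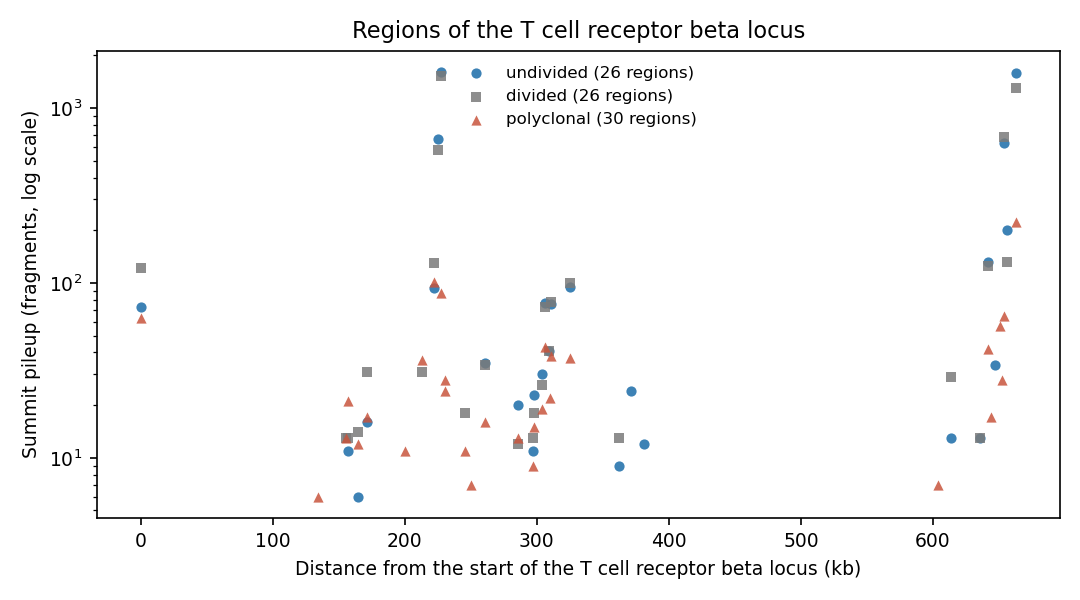
Summit pileup (log scale) of the 39 regions of the T cell receptor beta locus against distance from the start of the locus in kb, for the 3 libraries; a region not called in a library has no point there. The undivided and divided points lie together at Trbv12-2 and Trbv13-1 and at the 3′ end, at 1606, 664, 634 and 1584 fragments in undivided cells. They lie above the polyclonal points of these regions, except that Trbv13-1 has no polyclonal point.

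The alpha locus (chr14:52427967-54224198) was less one-sided, with 35 of 164 regions leaning to undivided and 24 to polyclonal cells. Direction differed along it. In the 5′ part, pileups at chr14:53072580-53073614 were 42 in undivided and 106 in polyclonal cells, and chr14:53039169-53039856 had 51 fragments in polyclonal cells and no undivided call. Farther 3′, chr14:53960899-53961708 had 47 fragments in undivided and 14 in polyclonal cells, and chr14:53878427-53878977 had 38 and 8. V segments of this locus are duplicated and near-identical, so reads may be split between copies and these positions are uncertain. The gamma locus had 4 regions that leaned to undivided and 1 to polyclonal cells.

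Each region was then given to the nearest RefSeq protein-coding gene span within 100 kb, and every gene was ranked by its net count, the number of its regions that leaned to undivided minus the number that leaned to polyclonal cells. Of 20665 genes, 14039 had a region. Net counts favoured undivided cells at 1568 genes (11.2%) and polyclonal cells at 2394 (17.1%). The polyclonal side also reached farther: 25 genes had a net count of at least 5 toward polyclonal and 4 toward undivided cells. A nearest gene is a label of position and not a measured target. The lists of 10 leading genes cut through ties, since 21 genes had a net count of −5 and 9 had 4; those with the larger share of their regions leaning that way were taken.

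**Figure D3:**
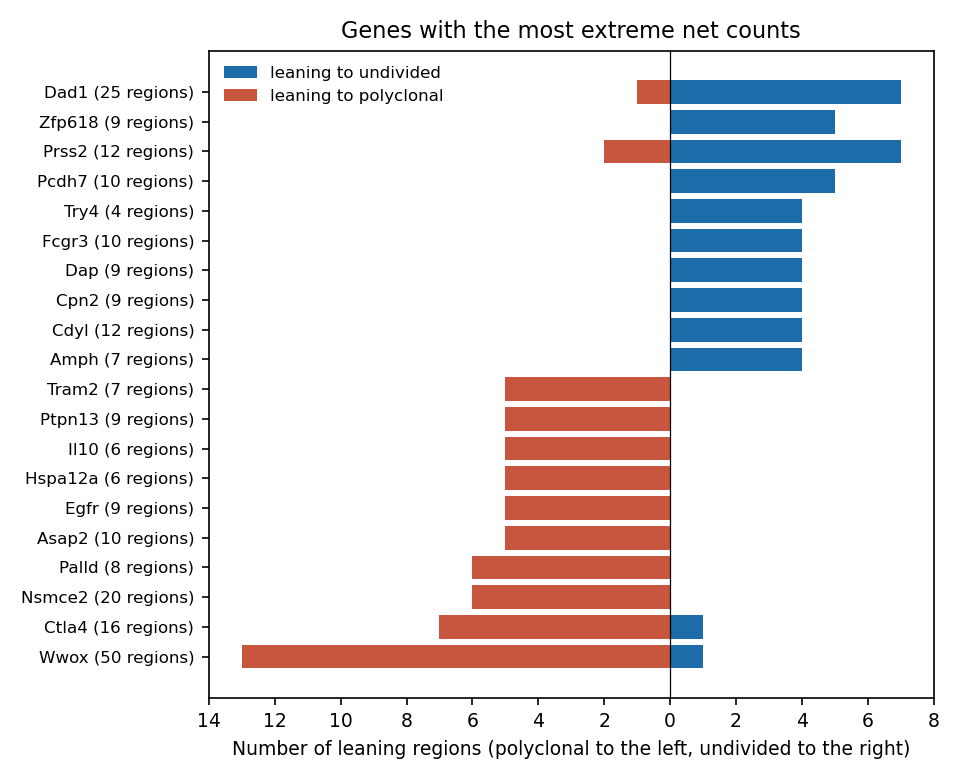
Number of regions leaning to undivided (right, blue) and to polyclonal cells (left, orange) at 10 genes with the highest and 10 with the lowest net counts, ties in net count being broken by the share of a gene's regions that lean that way; the number of regions of each gene is in brackets. Wwox had 13 regions that leaned to polyclonal cells out of 50, and Dad1 had 7 that leaned to undivided cells out of 25, all 7 inside the T cell receptor alpha locus.

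On the undivided side, 4 of the 10 leading genes took most of their count from receptor segments. Dad1 (7 to undivided, 1 to polyclonal cells) lies beside the alpha locus, Prss2 (7 to 2) and Try4 (4 to 0) lie inside the beta locus, and 3 of the 4 leaning regions of Amph belonged to the gamma locus. With receptor loci left out, a choice made after seeing the data, Dad1 and Prss2 each had a net count of −1. The highest-ranked genes were then Zfp618 and Pcdh7.

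Zfp618, a zinc finger gene, had 5 of 9 regions leaning to undivided cells, 2 of them called in divided cells, and none the other way. The strongest of its one-sided regions lay inside the gene, at chr4:63118887-63119288, with 27 fragments in undivided cells, 26 in divided cells and no polyclonal call. A shared region of the gene (chr4:63072816-63073583) had 31 fragments in undivided, 14 in polyclonal and 11 in divided cells. Pcdh7, a protocadherin adhesion gene, likewise had 5 of 10 regions. Its start region, chr5:57716765-57717960, had 46, 20 and 44 fragments in undivided, polyclonal and divided cells, and all 4 of its shared regions were higher in undivided cells, with a median log2 ratio of 1.15. The authors' fold at that start region was 4.06 in both libraries, and at the other start region (chr5:57714759-57716094) 3.80 in undivided and 4.16 in polyclonal cells.

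Fcgr3, which encodes an Fc gamma receptor chiefly of myeloid and NK cells, Dap, Cdyl and Cpn2 each had 4 regions leaning to undivided cells and none to polyclonal cells. At Fcgr3 the pileups of these 4 regions were 26 to 30 in undivided cells, with no polyclonal call. The authors' fold was 6.5 at one of them and 4.3 or less at the other 3, so these calls rose little above a high local background. Cdyl, a chromatin corepressor gene, had pileups of 10 to 13 fragments at its 4 regions, with 1 of the 4 called in divided cells. Across genes with at least 5 shared regions, median log2 ratios were highest at Coro2a (0.93), an actin-binding coronin gene. All 6 of its shared regions were above the median ratio, for example 43 against 21 fragments at chr4:46584257-46585165. Ptpn14 (0.68), Edaradd, Rpf2 and Camk2a (each 0.66) followed.

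Some of the most significant undivided-only peaks stood in that 1 library. A 298 bp peak at chr5:151734391-151734688, about 83 kb from Rfc3, had 302 fragments in undivided cells and was called in neither other library. Near Gm32856 (chr8:129301061-129301212) the value was 132 fragments, again with no call in divided cells. Rprm, which encodes the cell cycle inhibitor reprimo, differed from these: its region (chr2:54084783-54085926) covered the gene start with 60 fragments in undivided and 56 in divided cells, and no call in polyclonal cells. Regions near Vmn2r97 and Vmn2r91, and several Gm genes, belong to families of near-identical copies among which reads can be split, and are uncertain.

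Outside the receptor loci, the largest ratios toward undivided cells included 3 near known genes. A region near Hrh2, a histamine receptor gene (chr13:54173849-54174305), had 33 fragments in undivided and 8 in polyclonal cells, 4.15-fold (1.88 to 10.4), with 22 in divided cells. Near Trib2, a pseudokinase gene (chr12:15755113-15755699), the pileups were 31, 8 and 28 in that order. Near Ifi203, an interferon-inducible gene (chr1:173949006-173949483), they were 34, 9 and 20. At all 3 the divided pileup lay between the other 2.

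Toward polyclonal cells, 2 of the 10 leading genes, Il10 and Ctla4, are on the list of effector and regulatory T cell genes. Il10, the gene of an anti-inflammatory cytokine, had 5 of its 6 regions leaning to polyclonal cells. A shared region 25610 bp from the gene (chr1:130993543-130994235) had 19 fragments in undivided, 71 in polyclonal and 182 in divided cells, with an authors' fold of 9.40 in undivided and 12.5 in polyclonal cells. A region within 9 kb (chr1:131010302-131010884) had 26 in polyclonal and 55 in divided cells and no undivided call, and one inside the gene (chr1:131022493-131022921) had 13 and 34. All 5 regions were called in divided cells, at 16 to 182 fragments.

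Ctla4, which encodes an inhibitory receptor of activated and regulatory T cells, had 7 of 16 regions leaning to polyclonal and 1 to undivided cells. Inside the gene, chr1:60913328-60913691 had 19 fragments in undivided, 59 in polyclonal and 146 in divided cells. The authors' fold there was 2.97 in undivided and 4.50 in polyclonal cells. The median log2 ratio of the 9 shared regions of Ctla4 was −0.81, but 0.094 with the authors' fold over local background in place of the pileup. The region leaning the other way, 1.2 kb from the gene (chr1:60907518-60907786), had 26 fragments in undivided cells alone. The neighbouring Icos, a costimulatory receptor gene, had 5 regions leaning to polyclonal cells at 11 to 17 fragments, all called in divided cells, and 1 leaning to undivided cells at 15.

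Il17a, the gene of the Th17 cytokine IL-17A, held the largest ratio toward polyclonal cells of any shared region with at least 20 fragments. At chr1:20743902-20744282, 9.4 kb from the gene, the pileups were 6 in undivided, 64 in polyclonal and 110 in divided cells, which is 10.6-fold lower in undivided than in polyclonal cells (4.61 to 29.9). The authors' fold at that region was 3.87 in undivided and 17.9 in polyclonal cells. Gpr15, which encodes a receptor that directs T cells to the colon, had all 3 of its regions leaning to polyclonal cells. The one at its start (chr16:58718593-58718945) had 34 fragments in polyclonal and 22 in divided cells and no undivided call. A second, 14 kb away (chr16:58701612-58702224), had 19, 43 and 121 fragments in undivided, polyclonal and divided cells, with an authors' fold of 10.0 in undivided and 11.5 in polyclonal cells. Il2rb, which encodes the beta chain of the IL-2 receptor, had the lowest median log2 ratio of genes with at least 5 shared regions, −0.95, and none of its 5 shared regions was above the median ratio.

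The other leading genes toward polyclonal cells have less familiar roles in T cells. Wwox, a very long gene at a common fragile site, had 13 of 50 regions leaning to polyclonal cells and 1 to undivided cells. Those 13 had 9 to 30 fragments in polyclonal and 9 to 65 in divided cells, and none was called in undivided cells. Its 30 shared regions, by contrast, had a median log2 ratio of 0.02. Ptpn13, a tyrosine phosphatase gene, had 5 of 9 regions leaning to polyclonal cells, with 23, 67 and 97 fragments in undivided, polyclonal and divided cells at its start (chr5:103424649-103425666). The authors' fold at that start was 9.34 in undivided and 13.9 in polyclonal cells.

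At Palld, Hspa12a, Egfr and Atp2b4 several regions were lower in divided cells or not called there. Palld, which encodes an actin-bundling protein, had 6 of 8 regions leaning to polyclonal cells. At one (chr8:61606602-61607356) the pileups were 47 in polyclonal and 12 in divided cells, with no undivided call, and 3 of the 6 were not called in divided cells. Hspa12a, a heat shock protein family gene, and Egfr, the epidermal growth factor receptor gene, each had 5 regions leaning to polyclonal cells, of which 1 was called in divided cells. Atp2b4, a plasma membrane calcium pump gene, held the most significant polyclonal-only region (chr1:133762885-133763620), with 79 fragments in polyclonal and 14 in divided cells. A second region of that gene (chr1:133771765-133772392) had 57 and 19. At these strongest regions of Palld and Atp2b4 the polyclonal pileup was above both CBir1 libraries. Nsmce2, Tram2 and Asap2 completed the leading 10, with 6, 5 and 5 regions leaning to polyclonal cells and none the other way. Divided cells called 4 of the 6 at Nsmce2, 3 of the 5 at Tram2 and 4 of the 5 at Asap2.

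**Figure D4:**
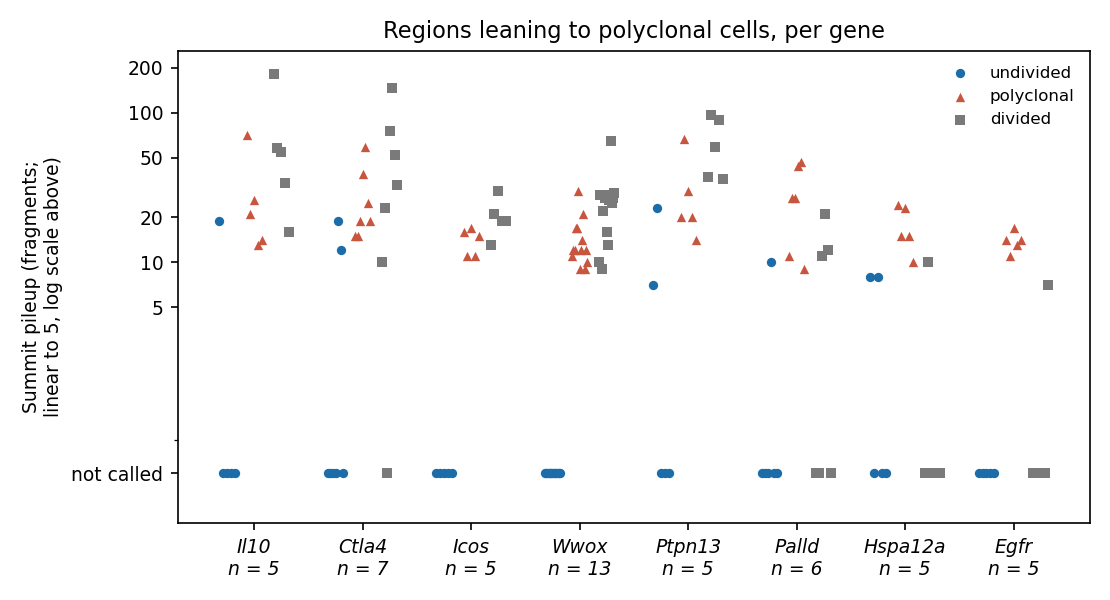
Summit pileup, in the 3 libraries, of the regions that leaned to polyclonal cells at 8 genes; n is the number of such regions, and a region without a peak is drawn at the not called line. At Il10, Icos, Wwox and Ptpn13 every region was called in divided cells, while at Hspa12a and Egfr 1 of 5 was.

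T cell gene lists put these loci beside their pathways. Over all genes with a region, 2661 leaning regions were on the undivided and 4020 on the polyclonal side, or 39.8% undivided. Of 42 helper and regulatory effector genes on chromosomes 1 to 19, 40 had a region, 22 were net toward polyclonal and 4 toward undivided cells, and their leaning regions numbered 11 to undivided and 55 to polyclonal cells. Their median log2 ratio over genes was −0.01, beside −0.04 for all genes, so its shared signal was near that of all genes. The count stayed on that side under each of the 11 alternative settings tried for it, at 10 to 44 with one-sided peaks of an authors' fold of at least 5.

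By lineage, the Tfh and Th17 genes Il21 (4 of 14 regions), Maf (3 of 5) and Rora (4 of 24, with 1 toward undivided cells) leaned to polyclonal cells. At Maf, a transcription factor gene needed for IL-10 and IL-21 production, chr8:115726804-115727145 had 19 fragments in polyclonal and 79 in divided cells and no undivided call. Ifng, the interferon gamma gene, had 3 of 10 regions, among them chr10:118460215-118460834 with 6, 20 and 43 fragments in undivided, polyclonal and divided cells. The authors' fold at that region was 3.87 in undivided and 6.88 in polyclonal cells. Ikzf2, which encodes the regulatory T cell factor Helios, had 2 of 16 regions, one of which (chr1:69544274-69544676) had 15, 45 and 121 fragments, with an authors' fold of 8.85 in undivided and 10.4 in polyclonal cells. Ccr6, a chemokine receptor gene of Th17 cells, had 3 of 3 regions and Gzmk, a granzyme gene, 2 of 2, all called in polyclonal and not in undivided cells. Cd44, a marker of antigen experience, had 2 of 12 regions leaning to polyclonal cells. The region at chr2:102956748-102957420, outside the gene, had 31 fragments in polyclonal and 88 in divided cells with no undivided call. The 9 shared regions of Cd44 had a median log2 ratio of 0.084, and 5 of them were above the median ratio. Not every effector gene followed: Gata3, Tbx21, Bcl6 and Il23r had no leaning region, and Pdcd1, Tox, Ccr4 and Ccl5 were net toward undivided cells by 1. The single region of Ccl5, a chemokine gene (chr11:83550157-83550828), had 20 fragments in undivided, 6 in polyclonal and 35 in divided cells.

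The 20 genes of the naive state all had regions, 387 in number, and their leaning regions were 28 to undivided and 25 to polyclonal cells. That is 52.8% undivided, beside 39.8% over all genes with a region. By gene, 10 were net toward undivided and 4 toward polyclonal cells, beside 11.2% and 17.1% of all genes with a region. Those 14039 genes held 46201 regions, and a gene with more regions has more occasions for a net count other than 0. With shared regions alone the list stood at 2 to 4, so the side depends on one-sided calls. Foxp1 (4 to 1 of 68 regions), Satb1 (2 to 0) and Il6ra (2 to 0) were net toward undivided cells, but Foxp1 stood at 6 to 9 with one-sided peaks taken at the authors' threshold. At Il6ra, the IL-6 receptor gene, chr3:89908839-89909144 had 47 fragments in undivided and 54 in divided cells and no polyclonal call. Foxo1 stood at 4 to 2, but at 1 to 2 with genes taken within 20 kb. Tcf7 (0 to 2) and Btg1 (0 to 5) were net toward polyclonal cells.

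Lef1 showed how calls and signal can part. It had 3 regions leaning to undivided and 7 to polyclonal cells, yet 17 of its 22 shared regions were higher in undivided cells, with a median log2 ratio of 0.24. Its polyclonal-only peaks had 12 to 64 fragments, and the authors' fold at 6 of the 7 was 3.9 or less, which at such pileups means a high local background. A missing call there does not show closed chromatin.

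Genes of the immediate response to receptor signals had 6 regions leaning to undivided and 8 to polyclonal cells over 20 genes. That is 42.9% undivided, near the 39.8% over all genes with a region. Myc, a growth regulator, had 2 regions toward undivided cells, and Tnfrsf9 and Cblb had 2 each toward polyclonal cells. Nr4a1, Nr4a3, Egr1, Egr2 and Egr3 had a net count of 0 or 1. Where one-sided peaks had to reach a −log10 q of 10, the list stood at 3 to 2.

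Markers of other cells were counted beside these lists. B cell markers had 0 regions leaning to undivided and 7 to polyclonal cells, at Ebf1, Pax5, Blnk and Cd22. These were out of 15 regions, beside 5.94% and 8.82% of all regions. Of the 10 B cell markers 7 had a region, and their summed pileups were 151 and 238 fragments. Myeloid and dendritic markers stood at 4 to 8, of which 4 were at Itgam, with summed pileups of 1363 and 1428. Their undivided share of leaning regions was 33.3%, beside 39.8% over all genes with a region, and all sets here held few leaning regions. NK and innate lymphoid markers stood at 2 to 1, and CD8 T cell markers at 0 to 1. The part of such cells in the differences was not tested.

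The divided CBir1 library, not used to define any class, gave another reading of these regions. It called 50.6% (49.5 to 51.7) of polyclonal-only and 40.9% (39.7 to 42.2) of undivided-only regions. The undivided cells share its receptor and donor. Among one-sided regions reaching a −log10 q of 5 the shares were 66.1% and 54.7%. For shared regions past 2-fold, divided pileups were first divided by 1.20, their median ratio to the other 2 libraries, and distances were taken in log2. Of the 424 shared regions at least 2-fold higher in polyclonal cells, 394 were called in divided cells. In 300 of these (76.1%, 71.7 to 80.1) the rescaled divided pileup was nearer to the polyclonal one. Of the 304 that were higher in undivided cells, 270 were called and 120 (44.4%, 38.6 to 50.4) were nearer to the undivided one. The divided library was also deeper, with 46764 peaks and a lowest background of 1.21 fragments against 0.808 in undivided and 0.865 in polyclonal cells, and a deeper list calls more regions.

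**Figure D5:**
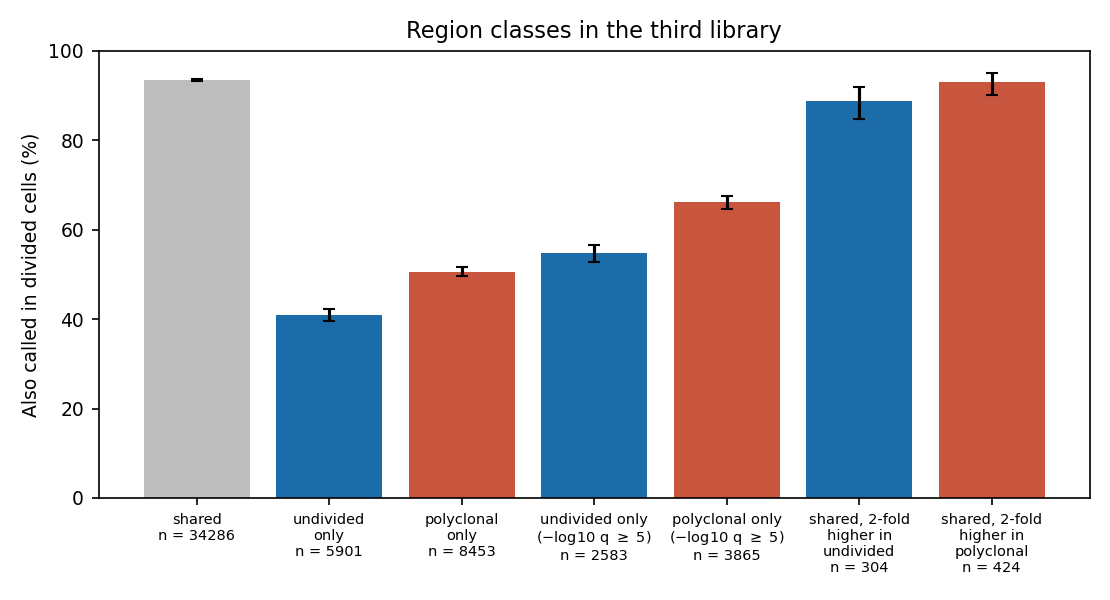
Share of each region class that also had a peak in divided cells, with Wilson 95% intervals (counting error only) and the number of regions below each bar. Polyclonal-only regions were called in divided cells more often than undivided-only regions, at 50.6% and 40.9%, and shared regions at 93.5%.

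Of the 31396 promoters of the RefSeq table on chromosomes 1 to 19, 82 overlapped an undivided-only and 149 a polyclonal-only region that reached a −log10 q of 5, while 19 and 72 overlapped shared regions 2-fold higher in undivided and polyclonal cells. Promoters in one-sided regions had fewer CpG dinucleotides than those in shared regions under 2-fold. The medians over 300 bases were 12 for undivided-only and 13 for polyclonal-only regions, 22 for shared regions under 2-fold and 7 for all promoters. For shared regions 2-fold higher in undivided and in polyclonal cells they were 9 and 22. Motifs were searched as letters on both strands. The ETS letters CCGGAAGT were in 3.66% of undivided-only, 4.03% of polyclonal-only and 8.97% of shared promoters under 2-fold, beside 3.95% of all promoters. The AP-1 letters TGACTCA were in 5 of the 19 shared promoters higher in undivided cells and in 5 of the 72 higher in polyclonal cells, beside 5.26% of all. Those 19 promoters belong to 17 genes. One-sided promoters had the other order for AP-1, 2 of 82 undivided-only against 9 of 149 polyclonal-only. A match describes the letters of the window only.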

How the data were processed

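Open chromatin was measured by ATAC-seq in 3 sorted fractions, 1 deposited peak list each. Per the submitters' processing notes, the build was mm10 and the tools were MACS2 2.1.0, Bowtie2 2.3.2, Trimmomatic 0.33, cutadapt 1.12, bcl2fastq 2.17, SAMtools and Picard. No source used here says how the duplicate pools entered each list, or whether reads were shifted for the transposase cut, a shift that changes summit positions slightly. The deposited lists give, for each peak, the fold over local background as a linear ratio, −log10 p-values and −log10 q-values, and an integer score made by the authors' peak caller. The lowest −log10 q was 1.30 in both lists. No source used here gives read totals.

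Summit pileups were recovered from fold, taken as (pileup + 1)/(background + 1), and the Poisson −log10 p; 99.99% or more were whole numbers within 0.001. Recovery, merging and fold classes were checked on simulated data. Ratio intervals are exact binomial. Python 3.11.15, numpy 2.4.6, pandas 2.3.3 and scipy 1.17.1 were used. Gene spans were RefSeq's (GRCm38.p6), without strand or exons, and 2439 regions had no gene within 100 kb. Chromosomes X and Y were left out, as was summit sequence outside promoters.

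Members and lists were chosen with earlier results of these data known. Genes were named, per direction, as the 10 most extreme net counts, the genes of the 8 most significant one-sided regions, of the 8 largest shared ratios and of the 5 most significant one-sided regions at a gene end, the 5 most extreme median ratios (at least 5 shared regions), and list members with a net count of 2 or more; other genes were named after their values were seen. Alternatives covered overlap, q, minimum pileup, fold, scaling, distance to genes and, added after seeing the data, leaving out receptor loci and a minimum authors' fold of 5. With 1 library per group no test between groups was made.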

Additional observations from a re-analysis of the deposited data

How the results depend on the processing

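The polyclonal side held more one-sided regions and more genes with a net count under every alternative run for them. The polyclonal list was also the larger one (43327 peaks against 40781), with a lowest background of 0.865 fragments against 0.808. A deeper list calls more regions, and the part of depth in these counts was not tested. One-sided counts, undivided to polyclonal, were 2583 to 3865 (40.1% undivided) where −log10 q reached 5, 724 to 1008 where it reached 10, 799 to 942 (45.9%) with a common minimum pileup of 20 after scaling (either way, a polyclonal pileup of exactly 20 scales to below it, which takes 1054 polyclonal-only regions to 942), and 2093 to 3261 (39.1%) with an authors' fold of at least 5, a choice added after seeing the data; an overlap of 50% moved the undivided share to 41.9%. Shares called in divided cells rose to 54.7% and 66.1% where −log10 q reached 5. Shared regions past the fold numbered 1579 to 1648 (48.9% undivided) at 1.5-fold, 34 to 71 (32.4%) at 3-fold, 64 to 102 with at least 40 fragments and 67 to 108 with the authors' fold; with at least 10 fragments they numbered 465 to 594. Scaling by the lowest background reversed that split, to 54.3% undivided (408 to 343), by construction: its factor of 0.933 in place of 0.993 moves every ratio toward undivided cells. Genes net toward polyclonal cells numbered 3708 at the authors' threshold; net counts were 761 to 1051 genes where −log10 q reached 10 and 246 to 357 with shared regions only. Of 68 genes recomputed under 11 settings, 6 reversed. Foxo1 stood at −1 within 20 kb, within its span and with shared regions only, and Foxp1 at −3 at the authors' threshold. 2210010C04Rik stood at 1 where −log10 q reached 10 and with shared regions only, and Gm19802 at 1 where −log10 q reached 10. Dad1 and Prss2 stood at −1 without receptor loci. Other genes did not reverse but had a net count of 0 in at least 1 setting. Among them were Wwox (−16 to 0 over the settings), Icos (−7 to 0), Egfr (−6 to 0), Atp2b4 (−5 to 0) and Maf (−4 to 0). Lef1, Rora, Ccr6, Fcgr3, Dap, Cdyl and Cpn2 also reached 0. Il10 (−5 to −1), Ctla4 (−7 to −2) and Pcdh7 (2 to 7) kept their side in each of these 11 settings. None of the 11 put the authors' fold in place of the pileup for shared regions. The median log2 ratio at Ctla4 was 0.094 with the authors' fold. The naive list stood at a net −2 with shared regions only, and the receptor signal list at 1 where −log10 q reached 10. No paired analysis was possible because each group is 1 library. Pileups of 10 fragments, the median of one-sided regions, limit what a missing call can show.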

Other observations

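Nebl, an actin-binding protein gene, had 4 of 13 regions leaning to polyclonal and 1 to undivided cells, with a median log2 ratio of −0.87 over 9 shared regions. Agbl1, a carboxypeptidase gene, had 4 of 10 regions leaning to polyclonal cells, all called in divided cells, and a median of −0.90. Gpr107, an orphan receptor family gene, had all 4 of its regions leaning to polyclonal cells, among them chr2:31171906-31172649 with 7 fragments in undivided, 36 in polyclonal and 67 in divided cells. Plcg1, which encodes a phospholipase of T cell receptor signalling, had a region (chr2:160763423-160764140) with 7, 32 and 36 fragments in that order and another (chr2:160746664-160746900) with 32 in undivided and 45 in divided cells and no polyclonal call, while its 8 shared regions had a median log2 ratio of −0.20. Col15a1, a collagen gene, had 4 regions toward polyclonal cells and 1 toward undivided cells.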
